A study of Monopterus albus with 3 samples.

Results

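Compact genes with short introns were picked out of the *Monopterus* gonad transcript annotation by their structure alone. A locus here is a Cufflinks gene identifier, and its transcript with the longest coding sequence (CDS) stood for it. It was called compact if that transcript had 5 to 29 coding segments, a CDS of at least 300 bp, and every intron between 50 and 200 bp long. These conditions were met by 89 of 63334 loci (0.141%), and by 89 of the 8989 loci (0.990%) that met the conditions on segments and CDS. The other 8900 of those 8989 loci served as the comparison loci. The compact loci held 602 coding segments and 513 introns and lay on 74 scaffolds.

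The annotation came from poly(A) RNA of the swamp eel *Monopterus albus*, a fish that changes sex from female to male during its life. There was 1 library each of ovary, ovotestis and testis, with no replicates. The annotation gives 1 set of coordinates and 1 coverage value per transcript for the whole series, so no locus could be compared between gonads. Coverage is the mean number of reads over each base of a transcript as Cufflinks estimated it, with a median of 37.2 over all 75480 transcripts.

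Splicing removes introns from the primary transcript. Where introns are short, the splicing machinery is thought to recognise the intron itself as the unit, by pairing the splice sites across it, whereas in genes with long introns the sites are first paired across the exon. Very short introns are a known feature of compact fish genomes such as those of pufferfish, and in several animals genes with high expression tend to have shorter introns. In this annotation the coding segments were trimmed to the open reading frame, so introns in untranslated regions were not counted, and a gene called compact here may hold a longer intron outside its CDS.

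The introns of the compact loci gathered around a length of 92 bp. This peak was read from the 1-bp histogram after an 11-bp running mean, and it stood at 90 bp for the 32112 introns of 50 to 200 bp in the comparison loci. Without smoothing the commonest length in the compact loci was 88 bp. The shortest compact intron was 63 bp and the longest 200 bp, with quartiles at 88 and 125 bp. The median was 103 bp (95% interval of the median 99 to 106 bp, n = 513 introns), against 113 bp (112 to 113 bp) for the comparison introns in the same length range. Intervals here and below are those of a median or share over introns, segments or loci of 1 annotation, and not error between animals. For introns and segments they treat members of the same locus as independent.

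Most comparison introns lay outside that range. Introns of 50 to 200 bp made up 34.9% of the 91941 comparison introns, whose median over all lengths was 371 bp. A single comparison intron, of 43 bp, was shorter than 50 bp, so the lower limit kept no locus out by itself. Within the range, introns under 80 bp were 11.3% (58 of 513) of those in compact loci, against 4.81% in comparison loci. Introns of 80 to 99 bp were 35.3% of the compact set, against 29.4% of the comparison set. Those of 150 bp or more were 13.3% of compact introns, against 22.9% of comparison introns. Within the range the compact loci thus held relatively more short and fewer long introns than the comparison loci, around a peak at nearly the same place in both groups.

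**Figure D1:**
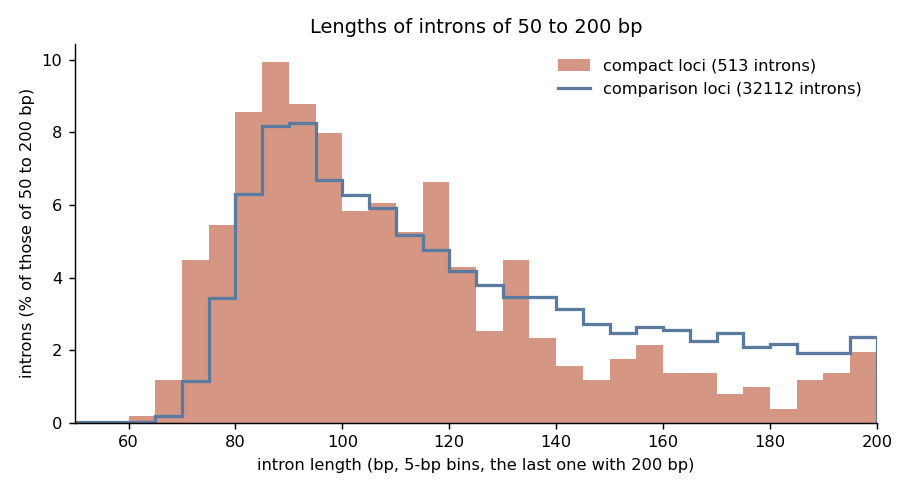
Lengths of introns of 50 to 200 bp as percent of the introns in that range, in 5-bp bins, for 513 introns of compact loci (filled) and 32112 introns of comparison loci (line). Both rise steeply to a peak near 90 bp, and the compact loci have more introns under 80 bp (11.3%, against 4.81%) and fewer of 150 bp or more (13.3%, against 22.9%).

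Position along the gene made little difference to intron length in the compact loci. Their median was 105 bp for first introns, 102 bp for middle introns and 104 bp for last introns. In the comparison loci the medians were 718 bp for first, 337 bp for middle and 428 bp for last introns, so there the first intron was the longest class. The rule bounds every compact intron, which by itself removes long first introns. Among comparison introns of 50 to 200 bp, the medians by position were 115, 113 and 112 bp in the same order, so within the range positions hardly differed there either.

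Introns can interrupt a codon at 3 places, called phases, and phase 0 lies between codons. Phase 0 held 46.2% of compact introns, against 47.0% of comparison introns. Phase 1 held 33.9% of compact and 30.8% of comparison introns, and phase 2 held 19.9% of compact and 22.2% of comparison introns. The interval of each compact share included the comparison share. An intron whose length is a multiple of 3 could be retained without a shift of the reading frame. Such lengths were 31.0% of compact introns and 32.9% of comparison introns of 50 to 200 bp, both close to an even split among the 3 remainders.

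Intron length varied both within and between loci. The SD of intron length within a locus had a median of 27.5 bp and ranged between 4.29 and 52.2 bp, while the SD of the locus means was 17.03 bp and that of all 513 introns 31.0 bp. Means of several introns spread less than single introns whatever the data, so these SDs do not rank the sources of spread. Locus means lay between 72.1 and 165.5 bp, with a median of 112 bp. In 19 loci every intron was under 120 bp, in 4 every intron was under 100 bp, and 46 loci held at least 1 intron of 150 bp or more. The length of an intron bore almost no relation to the mean length of the flanking exons (Spearman's rho 0.03 across 513 introns, which share loci).

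The shortest introns were concentrated in few loci. Of the 58 introns under 80 bp, 28 lay in 5 loci with at least 3 of them each, and 57 loci had none. Among the other 84 loci, 6.41% of introns (30 of 468) were under 80 bp, their peak was at 93 bp and their median 105 bp. This class of 5 loci was set apart after the values were seen. Its members are CUFF148.259, CUFF108.221, CUFF40.308, CUFF163.120 and CUFF60.271, each on a scaffold of its own.

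CUFF148.259, at 1622928 to 1624482 on scaffold 66 of the authors' assembly, had the smallest mean intron of all 89 loci. Its 8 introns, from first to last, were 79, 71, 67, 71, 72, 63, 81 and 73 bp long and had a mean of 72.1 bp. They parted 9 segments with a CDS of 978 bp. CUFF108.221, at 240950 to 243684 on scaffold 384, had 11 introns with a mean of 77.4 bp, of which 8 were under 80 bp and the longest 112 bp. CUFF40.308, at 624168 to 626034 on scaffold 174, was more mixed. It had 5 introns of 70 to 79 bp and 3 of 84, 127 and 147 bp. CUFF163.120, at 149637 to 152559 on scaffold 9, combined 4 introns under 80 bp with 1 of 190 bp among its 12 introns, and CUFF60.271 on scaffold 226 had 4 of 6 under 80 bp.

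These 5 loci were also among the most deeply covered. Coverage was 2224 for CUFF148.259, 2020 for CUFF108.221, 1941 for CUFF40.308, 1371 for CUFF163.120 and 648 for CUFF60.271. All 5 were thus above 500, a level that 15 of 89 compact loci (16.9%) reached. Median coverage was 1941 in these 5, 147 in the 27 compact loci with 1 or 2 introns under 80 bp, and 109 in the 57 with none. In the comparison loci the medians of the same 3 classes were 167 (33 loci), 138 (1230 loci) and 116 (7637 loci). Of the 33 comparison loci with at least 3 introns under 80 bp, 5 (15.2%) had coverage of at least 500, against 11.1% of the 7637 with none. The order of the classes was the same in both groups, and the difference between classes was far smaller in the comparison loci. The number of segments differed along the same classes. From none to at least 3 such introns, its median was 6, 7 and 9 in compact loci and 9, 13 and 17 in comparison loci. Short introns and number of segments were not separated here.

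Across all 89 compact loci, mean intron length and coverage were only loosely related (Spearman's rho -0.14, Pearson's r -0.14, on log2(coverage + 2)), and the loci share 1 assembly and 1 set of coverage values. In the 3 loci with a mean intron under 85 bp, which include the small locus CUFF108.66 on scaffold 380 with coverage 740, all values were at least 740. In the other classes the medians ran the opposite way, with wide ranges. The median coverage was 74.0 for the 24 loci with means of 85 to under 100 bp, 119 for the 40 loci of 100 to under 120 bp, and 199.9 for the 22 loci of 120 bp or more. Loci with coverage of at least 500 did not follow these medians, at 5, 6 and 1 in the same order. The locus with the highest coverage of all, CUFF148.243 on scaffold 655 at 2981, had introns of 78 to 168 bp and a mean of 113 bp. Its CDS was 624 bp in 9 segments.

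**Figure D2:**
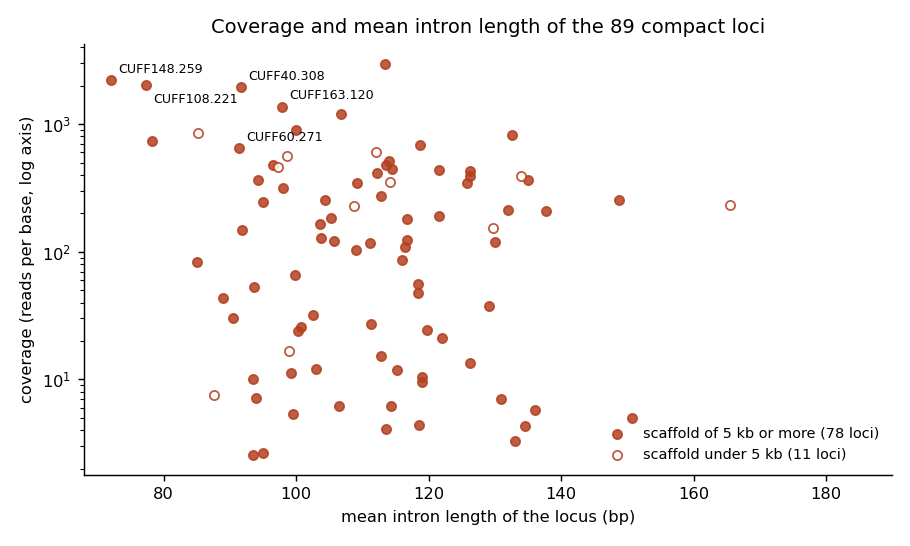
Coverage (reads per base, log axis) against mean intron length (bp) of the 89 compact loci, 78 on scaffolds of 5 kb or more (filled) and 11 on scaffolds under 5 kb (open). The 5 named loci, with at least 3 introns under 80 bp each, lie between 648 and 2224. Of these, CUFF40.308, CUFF163.120 and CUFF60.271 have mean introns of 91.6, 97.8 and 91.3 bp. Loci with means of 85 bp and more, these included, run over the whole range of coverage.

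As a group the compact loci did not have unusual coverage. Their median was 127 (interval 55.6 to 231, n = 89), against 120 (115 to 126, n = 8900) in the comparison loci. The quartiles were 16.8 and 395 in compact loci and 26.8 and 297 in comparison loci, so the compact loci were more spread. Coverage under 20 was found for 25.8% of compact and 21.7% of comparison loci, and coverage of at least 500 for 16.9% of compact and 11.3% of comparison loci. These pooled shares mix numbers of segments. For 5 to 6 segments, coverage under 20 was found for 25.5% of compact and 34.7% of comparison loci, the other direction. Coverage of at least 500 was found there for 13.7% of compact and 14.5% of comparison loci. For 7 to 9 segments the shares under 20 were 24.1% in compact and 23.6% in comparison loci. Those of at least 500 were 17.2% in compact and 13.5% in comparison loci. With introns limited to 150 bp, 44 loci were left with a median of 60.4, and when the coverage of a locus's transcripts was added up the median of the 89 was 226, against 200.5 in comparison loci. In RNA from whole gonads, fewer cells of a type and less RNA per cell cannot be told apart in such values.

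Loci of few segments carried the compact group, and coverage was therefore also read by number of segments. For 5 to 6 segments the median was 127 (43.8 to 246, n = 51) in compact loci, against 71.4 (61.6 to 84.8, n = 1932) in comparison loci. For 7 to 9 segments it was 185 (37.8 to 345, n = 29) in compact loci, against 124 in comparison loci. The 8 compact loci with 10 to 14 segments had a median of 35.9, against 138 in comparison loci. The compact median was the higher one for 5 to 6 and for 7 to 9 segments and the lower one for 10 to 14. For 5 to 6 and for 7 to 9 segments the compact interval included the comparison median. For 10 to 14 segments the interval of 8 loci is their whole range, 5.74 to 2020, so it could hardly exclude the comparison median. On scaffolds of at least 100 kb the medians were 117 for compact and 121 for comparison loci.

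**Figure D3:**
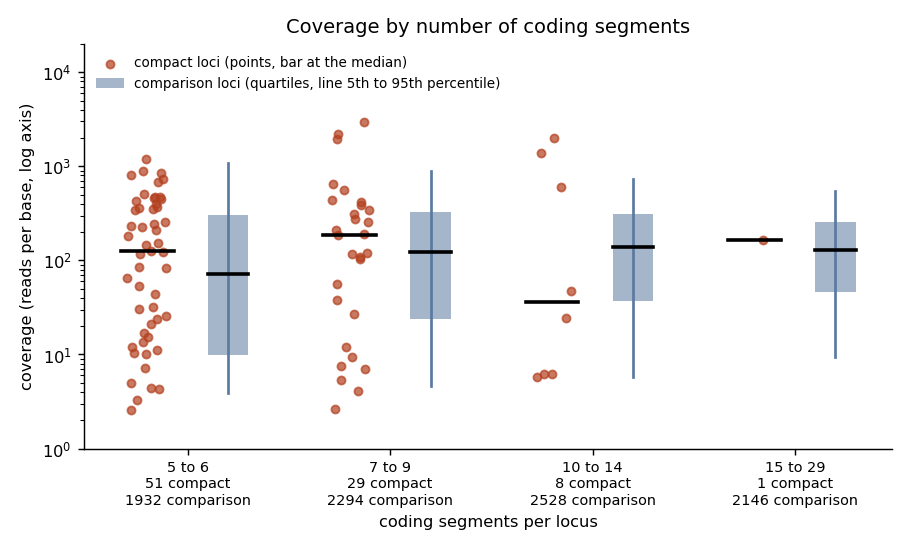
Coverage (reads per base, log axis) by number of coding segments, with each compact locus as a point and the comparison loci as a box of quartiles with a line from the 5th to the 95th percentile, and a bar at each median. Compact medians were 127, 185 and 35.9 for 5 to 6, 7 to 9 and 10 to 14 segments, against 71.4, 124 and 138 in comparison loci, and the last class holds 1 compact locus.

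The lowest values belonged to loci whose representative transcripts had ordinary introns. CUFF106.234 on scaffold 375 had coverage 2.54, CUFF123.20 on scaffold 457 had 2.64 and CUFF22.52 on scaffold 130 had 3.31. Their mean introns lay between 93.5 and 133 bp. The other transcript of CUFF123.20, with coverage 2.04, had an intron of 20053 bp. At such coverage an assembled transcript rests on few reads, and missed or shifted splice sites in it were not tested.

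Compactness was rarer in loci with more segments, as a condition on every intron implies. Of loci with exactly 5 segments, 33 of 1033 (3.19%) were compact. The share was 2.57% (51 of 1983) for 5 to 6 segments, 1.25% (29 of 2323) for 7 to 9, and 0.315% (8 of 2536) for 10 to 14. A single locus out of 2147 was compact among those with 15 to 29 segments. This locus was CUFF85.446, on the plus strand of scaffold 3 at 5553829 to 5556752. Its 15 introns of 78 to 126 bp had an SD of 15.3 bp and parted 16 segments with a summed CDS of 1371 bp, and its coverage was 165.

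Further loci with many segments were CUFF163.120 with 13, CUFF108.221 and CUFF42.781 with 12 each, and 5 loci with 10, of which CUFF130.492 had the longest CDS. CUFF42.781, at 7044275 to 7046978 on scaffold 18, had 11 introns between 100 and 136 bp, hence none near the peak. CUFF130.492 on scaffold 5 had introns of 95 to 196 bp and coverage 5.74. Loci with many segments thus lay on both sides of the peak.

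The coding segments themselves had the length found elsewhere in the annotation. Their median was 119.5 bp (114 to 127 bp, n = 602) in compact loci and 120 bp in comparison loci. For internal segments it was 124.5 bp (116 to 132 bp, n = 424) in compact loci and 122 bp in comparison loci. Internal segments with a length divisible by 3, which can be skipped without a frame shift, were 40.3% in compact and 39.8% in comparison loci. Compact loci with 10 to 14 segments had shorter segments, with a median of 99 bp against 119 bp in comparison loci.

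Compact loci were also smaller genes. The CDS had a median of 909 bp (762 to 1005 bp) in compact loci, against 1419 bp in comparison loci. At equal numbers of segments it was 768 bp in compact and 765 bp in comparison loci for 5 to 6 segments, and 1134 bp in compact and 1065 bp in comparison loci for 7 to 9. For 10 to 14 segments the 8 compact loci had 1306.5 bp, against 1534.5 bp in comparison loci, so a shorter CDS was seen in that class alone of the 3. From first to last coding base a compact locus covered a median of 1510 bp, against 8407 bp in comparison loci. Coding bases were 59.5% of that span in compact loci and 18.04% in comparison loci, a difference that the limit on introns largely fixes.

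A few compact loci were built around 1 long segment. At least 1 segment of 500 bp or more was present in 15 loci (16.9%), against 20.96% of comparison loci, and it was the last segment in 7, the first in 4 and an internal one in 4. CUFF69.182, at 926846 to 930548 on scaffold 253, had the longest CDS at 2751 bp in 9 segments and coverage 9.49. CUFF15.373 on scaffold 12 followed with 2586 bp, CUFF6.318 on scaffold 105 with 2484 bp, CUFF56.57 on scaffold 212 with 2103 bp and CUFF85.922 on scaffold 3 with 2067 bp. All 5 had mean introns between 113.5 and 121.5 bp. At the other extreme, 11 loci (12.4%) began with a segment of 15 bp or less, against 6.80% of comparison loci. In such loci the first intron depends on where the start codon was placed.

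**Figure D4:**
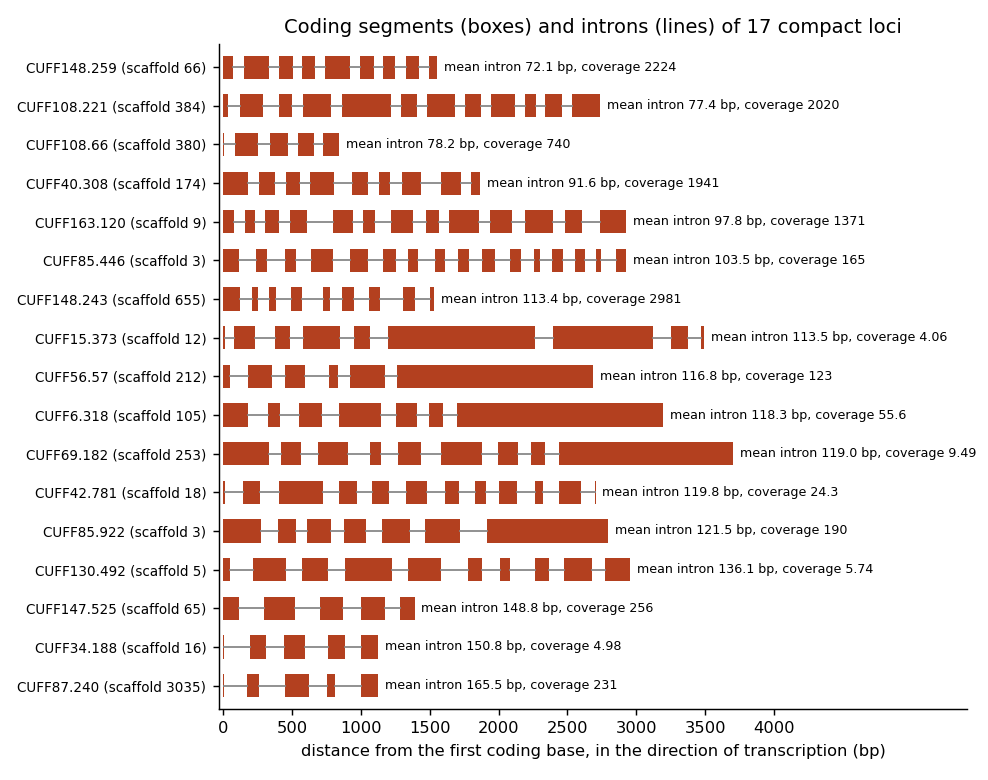
Coding segments (boxes) and introns (lines) of 17 compact loci to scale, in bp from the first coding base, ordered by mean intron length. Mean introns run between 72.1 bp in CUFF148.259 and 165.5 bp in CUFF87.240, and CUFF69.182, CUFF15.373, CUFF6.318 and CUFF56.57 each hold 1 or 2 segments far longer than the rest.

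The largest mean introns were near the upper limit of the range. CUFF87.240 on scaffold 3035 had introns of 164, 184, 127 and 187 bp with a mean of 165.5 bp and coverage 231. CUFF34.188 on scaffold 16 had a mean of 150.75 bp and coverage 4.98, and CUFF147.525 on scaffold 65 had 148.75 bp and coverage 256. All 3 had 5 segments. At the limit itself, 15 loci had a longest intron of 191 to 200 bp and were members, with a median coverage of 210. A further 7 loci had a longest intron of 201 to 210 bp and were not, with a median coverage of 44.3.

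Loci that missed the rule by 1 intron were commoner than members. In 298 loci exactly 1 intron was longer than 200 bp, with a median of 476 bp and a range of 201 to 13686 bp. It was the first intron in 80 of them (26.8%) and the last in 53 (17.8%), where an even spread over all introns would give 19.8% at each end. Median coverage of the 298 loci was 66.5.

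Several transcripts were recorded for a smaller share of compact than of comparison loci. More than 1 transcript was given for 38 of 89 compact loci (42.7%, Wilson interval 32.9 to 53.1%), against 55.8% of comparison loci. For 5 to 6 segments the shares were 35.3% in compact and 46.8% in comparison loci, and for 7 to 9 segments 58.6% in compact and 53.6% in comparison loci, so the direction was not the same in both classes. The 89 loci had 144 transcripts in all, with 51 loci at 1, 24 at 2, 11 at 3 and 3 at 4. The 3 loci with 4 transcripts were CUFF148.259, CUFF42.781 and CUFF122.156 on scaffold 455. Not every further transcript was another form of the same coding sequence. In CUFF130.551 all transcripts had equal ends, segment number and CDS length. In CUFF79.60 the other transcript lay outside the span of the representative.

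The other transcripts of the 38 loci were compared with the representative one intron by intron. In 17 loci (44.7%) at least 1 other transcript used no intron that the representative lacked, against 55.9% of comparison loci with several transcripts. Transcripts of a single segment could count here, and a further transcript of the same locus could still differ. In 12 loci (31.6%) a transcript used another splice site, against 40.7%, and in 5 loci (13.2%) a transcript left out an internal segment, against 12.6%. For 5 to 6 segments the splice-site share was 22.2% (4 of 18) in compact loci, against 30.5% in comparison loci. For 7 to 9 segments it was 47.1% (8 of 17), against 34.3%. The share that left out a segment was 5.56% against 8.30% for 5 to 6 segments, and 23.5% against 9.02% for 7 to 9. The direction thus differed between these classes for both measures. A whole intron of the representative lay inside a segment of another transcript in 1 locus, CUFF141.3, which is how a retained intron would appear. That was 2.63% of the compact loci with several transcripts, against 0.443% of such comparison loci. Another transcript had an intron outside 50 to 200 bp in 12 of the 38 loci, so 77 of the 89 loci had no intron outside that range in any transcript, although some of their other transcripts had fewer segments or a shorter CDS than the rule asked of the representative.

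The distance to neighbouring loci depended on which neighbours were counted. The gap between coding spans to the nearest other locus had a median of 1582 bp (1075 to 2126 bp, n = 81), against 1628 bp in comparison loci. Many of these neighbours were short open reading frames. To the nearest locus whose CDS reached 300 bp the median was 3491 bp (1918 to 5814 bp, n = 78) in compact loci and 4896.5 bp in comparison loci, and the compact interval included the comparison median. On scaffolds of at least 100 kb these medians were 3484 bp in compact and 4893 bp in comparison loci. The most isolated loci were CUFF5.64 on scaffold 103, with 20725 bp to its nearest neighbour, CUFF26.108 on scaffold 140 with 16576 bp and CUFF42.96 on scaffold 178 with 15905 bp.

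Overlaps with another locus were found for 12 compact loci (13.5%, Wilson interval 7.88 to 22.1%), against 19.9% of comparison loci. The compact interval included the comparison share. An overlap could lie anywhere in the coding span, introns included. The limit on introns shortens that span, with a median of 1510 bp in compact loci against 8407 bp in comparison loci. The rule by itself thus leaves less room for overlaps, and overlap at equal span was not tested. Of the 12 loci that overlapped compact loci, 10 had a single segment and 7 lay on the opposite strand. Neighbours were also read by side and strand. The next locus upstream, of any CDS length, was on the same strand for 52 of 79 compact loci (65.8%, Wilson interval 54.8 to 75.3%), against 53.5% of comparison loci, a share below the compact interval. Downstream it was on the same strand for 46 of 76 compact loci (60.5%, 49.3 to 70.8%), against 55.9% of comparison loci. Among neighbours with a CDS of 300 bp or more, the upstream one was on the same strand for 51 of 77 compact loci (66.2%, 55.1 to 75.8%), against 57.7% of comparison loci, and the downstream one for 47 of 75 compact loci (62.7%, 51.4 to 72.7%), against 57.7%. The median gap to such a neighbour on the same strand was 5853 bp upstream and 7923 bp downstream in compact loci, against 10803 bp upstream and 10982 bp downstream in comparison loci. On the opposite strand the upstream gap was 12611 bp in compact and 13824 bp in comparison loci, and the downstream gap 12497 bp in compact and 11827 bp in comparison loci. With neighbours of any CDS length, the upstream gap was 3869.5 bp on the same and 3712 bp on the opposite strand in compact loci, against 5084 and 6063 bp in comparison loci. Downstream it was 3666.5 bp on the same and 4588 bp on the opposite strand in compact loci, against 4090 and 3320 bp in comparison loci. Upstream gaps and gaps to neighbours on the same strand were thus the shorter ones in compact loci by either definition. Downstream gaps to the opposite strand were longer, and these differences were not tested. Of the same-strand shares, only the upstream one for any CDS length had a compact interval that left out the comparison share. The other compact intervals included it.

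Compact loci were scattered, and 65 of the 74 scaffolds held 1 each. Scaffold 12 held the most, where 7 of 102 loci that met the conditions on segments and CDS were compact, spread between 3050150 and 6131905. Shares were larger on some scaffolds with fewer such loci, among them scaffold 457 with 2 of 6 and scaffold 212 with 2 of 15. Scaffold 5 held 3 of 80. One pair of compact loci were direct neighbours when loci with a shorter CDS than 300 bp were passed over, CUFF141.3 on the plus strand and CUFF141.5 on the minus strand of scaffold 60, within 54659 to 57932 and 766 bp apart. Their coverage was 24.0 and 210. Their 3′ ends face each other, and the introns of CUFF141.3 were 65 to 124 bp long while those of CUFF141.5 were 96 to 192 bp long.

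Scaffolds with a very short annotated length held more than their share of members. Scaffold length was taken as the last annotated base, which can only understate it. On scaffolds under 5 kb, 11 of 45 loci that met the conditions on segments and CDS were compact (24.4%), against 78 of 8944 (0.872%) on longer ones. By this measure these 11 scaffolds were 828 to 4712 bp long, and 9 of the 11 loci began within 150 bases of the scaffold's start. The last annotated base of each belonged to the compact locus itself, which thus set the length. The coding span took up between 32.2% and 100% of that length. By this measure a locus with a span over 5 kb cannot fall in the class, and the median span of comparison loci was 8407 bp. The condition on introns and the scaffold length so measured therefore cannot be told apart in these loci. Their median coverage was 351, against 185 for the comparison loci on such scaffolds. Of the 89 compact loci, 8 (8.99%) had no other locus on their scaffold, against 0.348% of comparison loci.

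Some such loci have the structure of part of a longer gene model elsewhere. CUFF57.12 on scaffold 2146 has 10 segments and coverage 609, and 8 consecutive internal segments of 80, 129, 89, 109, 99, 147, 239 and 147 bp. The same 8 lengths in the same order, with all 7 introns between them also equal in length, occur in CUFF85.903 on scaffold 3, whose longest intron is 21612 bp and which is therefore not compact. The introns before and after the run, of 173 and 73 bp, were equal as well, so every intron of CUFF57.12 recurs in CUFF85.903. CUFF109.26 on scaffold 3852 likewise shared 3 internal segments with CUFF122.160 on scaffold 455. All introns of CUFF109.26, of 139, 79, 90 and 81 bp, recur there in the same order, and the longest intron of CUFF122.160 is 3429 bp. CUFF87.240 shared segments of 92, 177 and 60 bp with CUFF140.628 on scaffold 6. All introns of CUFF87.240, of 164, 184, 127 and 187 bp, recur there in the same order, and the longest intron of CUFF140.628 is 6031 bp. Whether such pairs are separate copies or the same stretch assembled more than once was not tested, since no sequence of these scaffolds was used. Nor was it tested whether these compact loci are whole genes.

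Runs of segment lengths were compared for all compact loci, because related genes often keep their segment lengths while intron lengths diverge. A run of at least 3 internal segments of equal lengths was shared with another locus by 25 compact loci (28.1%), against 37.8% of comparison loci, which have more segments to share. By class the shares were 23.5% in compact loci for 5 to 6 segments, with an interval that included the 16.3% of comparison loci, 34.5% in compact and 29.8% in comparison loci for 7 to 9, and 2 of 8 compact loci against 43.9% of comparison loci for 10 to 14. The direction was not the same in all classes. The 25 loci formed 37 pairs, and no pair lay on the same scaffold. Among loci on scaffolds under 5 kb, 6 of 11 shared a run.

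Runs with equal segments and unequal introns were the commoner kind. CUFF123.21 on scaffold 457 and CUFF6.304 on scaffold 105 shared 6 segments, of 204, 126, 171, 105, 96 and 132 bp, and none of the 5 introns between them. The longest intron of CUFF6.304 was 250 bp, just over the limit. CUFF42.781 shared 5 segments with CUFF45.96 on scaffold 188, whose longest intron was 380 bp, and CUFF123.20 shared 5 with CUFF96.55 on scaffold 331, whose longest was 16985 bp. In both pairs 0 of 4 introns were equal. CUFF31.393 on scaffold 1525 shared 5 segments and 0 of 4 introns with CUFF140.628.

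Both members were compact in 4 pairs, which came from 2 sets of loci. CUFF90.72 on scaffold 311, CUFF4.27 on scaffold 1009 and CUFF20.333 on scaffold 128 shared segments of 296, 173 and 249 bp. CUFF26.108 on scaffold 140 and CUFF78.170 on scaffold 282 shared segments of 177, 59, 48 and 57 bp and also the 3 introns between them, of 97, 81 and 130 bp. CUFF42.898 on scaffold 18 shared the first 3 of these segments and both introns, but had an intron of 452 bp. Equal lengths were read without sequence, so a shared run describes structure and not descent.

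**Figure D5:**
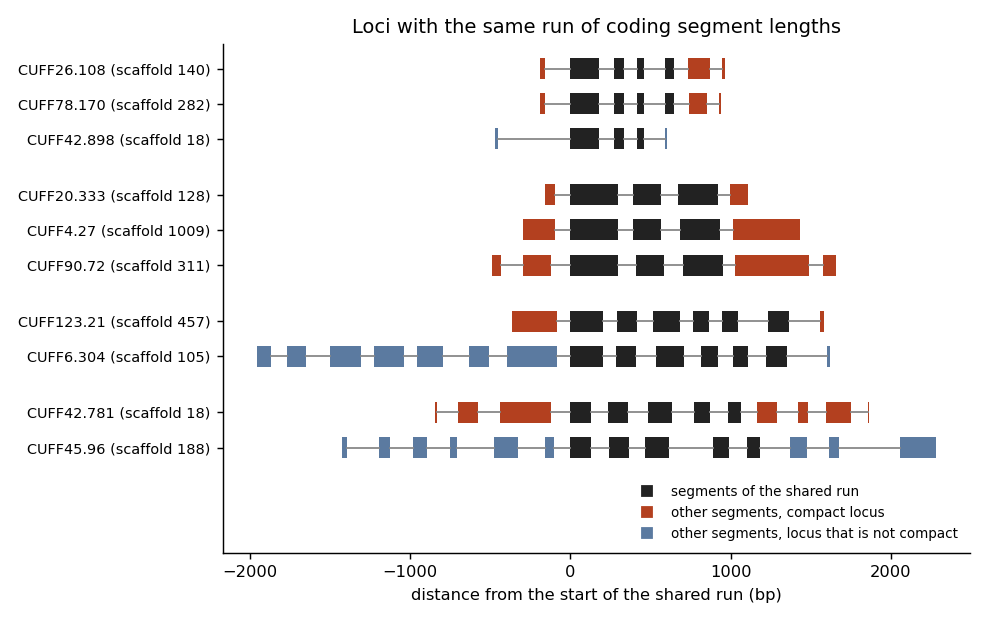
Coding segments (boxes) and introns (lines) to scale, in bp from the start of the shared run, for 4 sets of loci with the same run of segment lengths (dark). Introns within the run are equal for CUFF26.108, CUFF78.170 and CUFF42.898, and none of the 5 are equal between CUFF123.21 and CUFF6.304.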

How the data were processed

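Poly(A) RNA of 1 ovary, 1 ovotestis and 1 testis library was sequenced. Reads were mapped by the authors to scaffolds of their assembly, with TopHat 1.3.3 and Bowtie 0.12.7, and transcripts were built with Cufflinks 1.1.0, according to the submitters' processing notes, while the paper names another Cufflinks version. The authors then trimmed each transcript to an open reading frame found with a hidden Markov model. The deposited annotation gives, for the series as a whole, the coordinates of coding segments and, per transcript, an FPKM and a read coverage. Pooling of reads for the assembly is not stated. Library sizes were not found in the sources used here, so coverage is the sole measure of depth. Coverage was used as the level, since the FPKM values were not on 1 scale.

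Introns are the intervals between consecutive segments of a transcript, in 1-based coordinates. Ties for the representative transcript were settled by larger span, then by transcript identifier. Where span was equal too, the coverage given thus depended on the identifier. CUFF148.259 was given 2224, and its tied transcript had 774. CUFF109.417 was given 212, and its tied transcript had 1602. Medians have 95% order-statistic intervals and shares 95% Wilson intervals. These cover sampling of loci, introns or segments only, and do not allow for introns and segments that share a locus. No test was run, because there are no replicates. Correlations are descriptions, with a pseudocount of 2 on coverage. Scripts ran in Python 3.11.15 with numpy 2.4.6, scipy 1.17.1 and matplotlib 3.10.9, and were tested on simulated gene models.

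The members, lists and measures were chosen with earlier results of these data known. Loci described by name were the 5 with most segments, longest CDS and highest coverage, the 3 with lowest coverage, most transcripts, smallest and largest mean intron and largest gap, with ties settled by the longer CDS, and neighbouring compact loci. Loci named for introns under 80 bp or for shared segment lengths were chosen after their values were seen. The deposited identifiers are not paired with gene names, and 0 matched the RefSeq table, so loci are given by identifier and scaffold. Splice-site sequences were not analysed here. Alternatives were other intron limits, other minimum numbers of segments and CDS, other choices of representative transcript and of neighbour, long scaffolds alone, and 3 settings added after the data were seen.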

Additional observations from a re-analysis of the deposited data

How the results depend on the processing

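With no replicates and 1 coverage value for the series, no library could be left out. No paired analysis was possible because the values are not given per library. Each value was recomputed under other settings, 14 planned and 3 added after the data were seen, which gave 94 values. Of these, 78 stayed near the value reported (within 1.5 times for the number of loci, 5 bp for the peak and the 95% interval for the rest) and 16 moved further. Dropping the lower limit on introns, or asking for a CDS divisible by 3, kept the same 89 loci. Their values count among the 78 but could not differ. The setting with exactly 1 intron outside the limits holds none of the 89 loci. Those of its values that count among the 78 therefore describe other loci and not the stability of the compact ones. The number of compact loci follows the limits by construction: 44 with introns up to 150 bp, 146 with introns up to 250 bp, 25 with at least 8 segments, and 298 with exactly 1 intron outside the limits (added). The median intron was 96 bp with introns up to 150 bp, 108 bp up to 250 bp and 114 bp with 1 intron outside. The peak is the least settled value. It was 85 bp when the transcript with the highest coverage stood for the locus, 84 bp with at least 8 segments and 85 bp when every transcript had to be within the limits (added), and the cause was not tested. With at least 8 segments the median segment was 103 bp, the median CDS 1137 bp and the share with more than 1 transcript 56%. A CDS of at least 600 bp gave a median segment of 131 bp, which longer genes at equal segment number imply. The gap was 3491 bp to neighbours with a CDS of at least 300 bp and 3608.5 bp to neighbours with several segments, since fewer loci count as neighbours. Median coverage stayed within its interval under every setting run for it, at values between 60.4 (introns up to 150 bp) and 226 (summed over transcripts). That interval was wide, from 55.6 to 231.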
